A study of Mus musculus with 13 samples.

Results

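The genes described here encode the collagens, the laminins and the lysyl oxidases that cross-link collagen in the mouse adrenal gland. They were chosen by symbol alone: every gene named as a collagen alpha chain (Col), a laminin alpha, beta or gamma chain (Lama, Lamb, Lamc) or a lysyl oxidase (Lox, Loxl). By this rule 54 genes were found among the 14715 genes listed in any deposited table. Of these, 50 were listed for all groups and entered the tests, among 14078 genes tested. The other 4 were listed for some groups only, among them Col26a1 at 24 h, and Col6a4 and Lamb3 before TAM and at 8 weeks.

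The libraries came from RNA of adrenal glands (strain C57BL/6) in a model where TAM is given to delete Star. STAR protein carries cholesterol into mitochondria, the step that limits steroid synthesis. There were 5 libraries from before TAM, 4 from 24 h after it and 4 from 8 weeks after it. All groups share the strain and the tissue. The labels give no age, no sex and no driver of the deletion, and they do not tie libraries to animals, so the p-values below reflect a spread among samples that may be technical. The groups hold no TAM control with Star intact, and the effects of time, of TAM and of losing Star cannot be told apart. Star itself was at 3207 to 4239 FPKM (fragments per kilobase of transcript, scaled to the library's total) before TAM, at 17.4 to 626 FPKM at 24 h and at 85.9 to 202 FPKM at 8 weeks. Each library held 17331673 to 27309429 listed reads, of which the 50 genes took 0.387% to 0.517% before TAM, 0.538% to 0.870% at 24 h and 0.557% to 0.664% at 8 weeks.

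1 library, replicate 3 of the 24 h group, stood furthest from its group, and replicate 4 of that group stood apart in part. Replicate 3 of the 24 h group had the lowest summed level of the steroid-making cortex markers in its group (4212 FPKM, against 8615 to 18360 in the other 24 h libraries), of endothelial markers (159 against 486 to 703 FPKM) and of fat cell markers (62.4 against 1544 to 2550 FPKM). Markers of the medulla, the catecholamine-making core of the gland, summed to 76.9 FPKM in that library and to 132 FPKM in replicate 4 of the same group, against 2668 and 4959 FPKM in the remaining pair. Markers of mesothelium, the lining of the body cavity, summed to 90.2 FPKM in replicate 3 against 2.59 to 15.1 FPKM. Collagen, laminin and cross-linker genes whose call at 24 h changed without replicate 3 are therefore also given without it.

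Collagens are built from 3 chains wound into a triple helix. Fibrillar collagens such as types I, III and V assemble into the rope-like fibrils of interstitial connective tissue, in the adrenal gland chiefly in the capsule and around vessels, and lysyl oxidases oxidise lysine residues so that the fibrils become cross-linked. Collagen IV and the laminins form the sheet-like networks of basement membranes, which lie under the endothelium of the sinusoids and around cords of steroid-making cells. Cells bind both kinds of matrix through integrins and other receptors.

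Genes of the main fibrillar collagens and of 4 cross-linkers rose at both times after TAM. The abundant collagen IV genes rose at 24 h, and 5 laminin genes fell at 8 weeks. At 8 weeks 19 of the 50 genes rose and 9 fell against before TAM (edgeR quasi-likelihood test, Benjamini-Hochberg adjusted p under 0.05), where 20.5% of all genes tested rose and 16.4% fell (36.9% in all). The median log2 fold change was 0.68 over the 50 genes and 0.03 over all genes. At 24 h 16 of the 50 rose and 3 fell, where 12.6% of all genes rose and 6.63% fell (19.2% in all), with medians of 0.62 and 0.03. Between 24 h and 8 weeks 6 rose and 8 fell, where 10.1% of all genes rose and 10.6% fell (20.8% in all), with medians of 0.08 and -0.03. Without 24 h replicate 3 the counts were 19 higher and 5 lower at 24 h, 22 higher and 11 lower at 8 weeks, and 5 higher and 11 lower between the later groups. The fits share one estimate of the spread, so a 24 h library also touches the comparison of 8 weeks with before. The comparisons of 24 h and of 8 weeks with before share the same 5 control libraries.

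**Figure D1:**
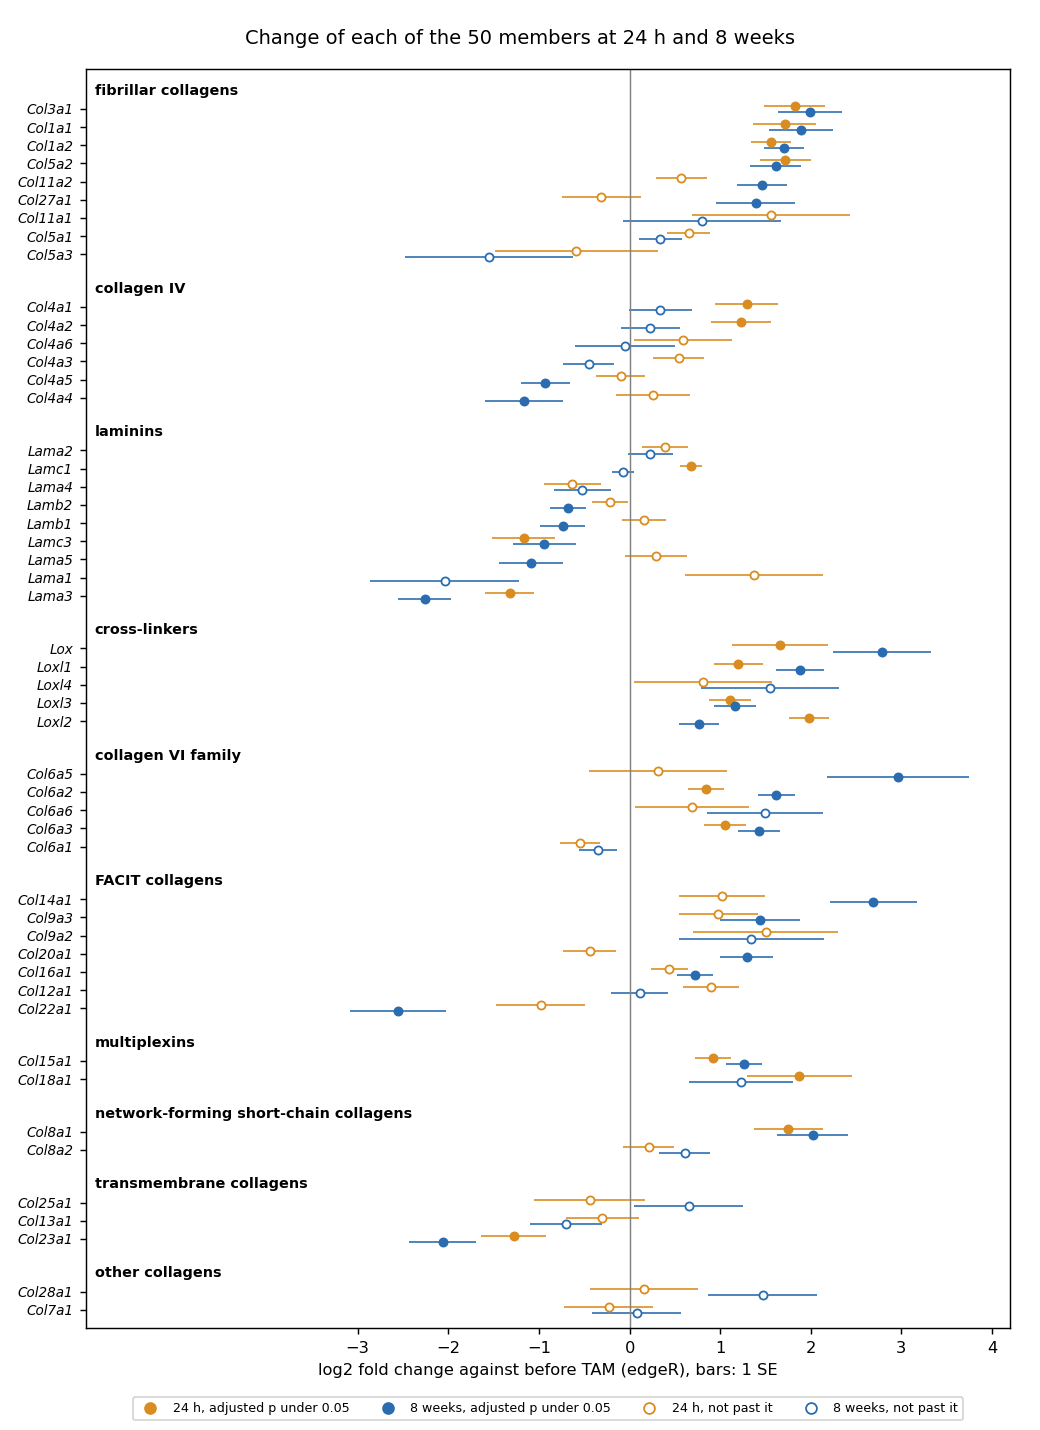
Log2 fold change (edgeR, bars 1 standard error) of each of the 50 genes at 24 h (orange) and 8 weeks (blue) against before TAM, by class; filled points have an adjusted p under 0.05. The 4 fibrillar genes Col3a1, Col1a1, Col1a2 and Col5a2 lie between 1.56 and 1.99 at both times, while no collagen IV or laminin gene has a filled blue point to the right of 0.

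Among the fibrillar collagens 9 of the 11 family members were listed. At 8 weeks 6 of the 9 rose and none fell (edgeR, median log2 fold change 1.46), and at 24 h 4 of the 9 rose and none fell (median 1.56). Without 24 h replicate 3 the count at 24 h was 6. Between 24 h and 8 weeks 2 rose (median 0.14). The share of all genes that rose was 20.5% at 8 weeks, 12.6% at 24 h and 10.1% between these times. In bulk tissue more cells of a type and more RNA per cell cannot be told apart.

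Col3a1 encodes the chain of type III collagen, which forms fine fibrils beside type I. Its level was 25.2, 61.0, 76.6, 25.4 and 28.4 FPKM before TAM, 191, 141, 119 and 152 FPKM at 24 h, and 189, 159.9, 142 and 142 FPKM at 8 weeks. Every library after TAM lay above every library before it. The log2 fold change was 1.82 ± 0.34 (SE) at 24 h (edgeR adjusted p = 0.003) and 1.99 ± 0.35 at 8 weeks (adjusted p = 0.00081), and the later groups differed by 0.17 ± 0.36 (adjusted p = 0.77).

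Col1a1 and Col1a2 encode the chains of type I collagen, the main fibril former. Col1a1 was at 15.2, 27.8, 41.7, 16.2 and 15.4 FPKM before TAM, at 89.4, 77.3, 39.8 and 92.0 FPKM at 24 h, and at 60.6, 94.0, 77.9 and 84.7 FPKM at 8 weeks. Replicate 3 at 24 h was the single later library inside the earlier range, just under replicate 3 before TAM. The gene rose by 1.71 ± 0.35 on the log2 scale at 24 h (edgeR adjusted p = 0.0048) and by 1.89 ± 0.35 at 8 weeks (adjusted p = 0.0013).

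Col1a2 was at 43.9, 44.4, 67.4, 33.8 and 31.3 FPKM before TAM, at 139.8, 125, 118 and 132 FPKM at 24 h, and at 139.7, 161, 112 and 117 FPKM at 8 weeks. The groups after TAM did not overlap the group before it. The log2 fold change was 1.56 ± 0.22 at 24 h (edgeR adjusted p = 0.00054) and 1.70 ± 0.22 at 8 weeks (adjusted p = 0.00011). The Col1a1 level was 0.339 to 0.726 times that of Col1a2 across all 13 libraries, although the type I molecule holds more alpha 1 than alpha 2 chains.

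Col5a2 encodes a chain of type V collagen, which is built into type I fibrils and limits their thickness. It was at 2.26, 5.36, 7.23, 3.86 and 4.19 FPKM before TAM, at 17.4, 15.8, 10.3 and 15.8 FPKM at 24 h, and at 14.7, 12.1, 11.6 and 13.02 FPKM at 8 weeks. The log2 fold change was 1.72 ± 0.28 at 24 h (edgeR adjusted p = 0.0012) and 1.61 ± 0.28 at 8 weeks (adjusted p = 0.00082). Its neighbour on chromosome 1 is Col3a1, tail to tail with 24624 bases between them.

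The other type V chains passed no test against before with all libraries in the fit. Col5a1, the partner of Col5a2 in the common type V molecule, was at 8.80 to 13.8 FPKM before TAM, 9.77 to 20.4 at 24 h and 10.1 to 15.0 at 8 weeks. Its change did not pass the test at 24 h (0.65 ± 0.24, edgeR adjusted p = 0.073), but did without 24 h replicate 3 (0.88 ± 0.17, adjusted p = 0.0028). Col5a3 was at 12.3 to 90.9 FPKM before TAM, at 34.3, 56.0, 0.236 and 15.6 FPKM at 24 h and at 8.32 to 20.4 FPKM at 8 weeks, so replicate 3 at 24 h was far below every other library. The 8-week difference of Col5a3 was -1.55 ± 0.93 (adjusted p = 0.21), and it passed the test without that library (-1.59 ± 0.53, adjusted p = 0.027).

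Col11a2 and Col27a1, minor fibrillar chains best known from cartilage, were low and rose at 8 weeks. Col11a2 went from 0.275 ± 0.0434 FPKM (SD, n = 5) to 0.688 ± 0.166 FPKM (SD, n = 4), a log2 change of 1.46 ± 0.28 (edgeR adjusted p = 0.0015). Col27a1 went from 4.73 ± 2.10 to 11.2 ± 2.86 FPKM, a log2 change of 1.39 ± 0.44 (adjusted p = 0.025), and lost the call without any 1 of 5 libraries (before replicates 3, 4 and 5, and 8-week replicates 3 and 4, adjusted p 0.054 to 0.065). At 24 h the Col11a2 change of 0.57 did not pass the test (edgeR adjusted p = 0.17), but did without 24 h replicate 3 (0.77 ± 0.25, adjusted p = 0.037). Both were also called higher at 8 weeks than at 24 h, Col27a1 by 1.71 ± 0.47 (adjusted p = 0.026) and Col11a2 by 0.88 ± 0.29 (adjusted p = 0.048). The Col11a2 call was lost in 12 of the 13 fits that left out 1 library (adjusted p 0.051 to 0.12). Col27a1 lost it without 24 h replicate 2 or without 8-week replicate 3 or 4 (adjusted p 0.051 to 0.061). Col11a1 was at 10.7 FPKM in 24 h replicate 3 and at 0.248 to 2.15 FPKM in every other library, and its change at 24 h was 1.56 ± 0.87 with that library and -0.80 ± 0.53 without it (adjusted p = 0.24 and 0.28).

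The sequences before the start sites of the fibrillar genes are shown because 4 of these genes rose at both times. RefSeq promoter windows of 300 bases, 250 before and 50 after the start, were matched by symbol for 36 of the 54 genes on GRCm38.p6. Those not matched included Col1a1, Col4a3, Col5a2, Col9a3, Col12a1, Col14a1, Col22a1, Col26a1, Lama1, Lama3, Lama4, Lamc1, Lamc3, Lox, Loxl1, Loxl2 and Loxl3. The windows of Col1a2 (chr6:4505368-4505667, plus strand) and Col3a1 (chr1:45311288-45311587, plus strand) follow, written 5′ to 3′ along the gene, with capitals on either strand marking the CCAAT box (letters CCAAT), the GC box (letters GGGCGG) and the TATA box (letters TATAAA), which do not overlap each other here.
Col1a2: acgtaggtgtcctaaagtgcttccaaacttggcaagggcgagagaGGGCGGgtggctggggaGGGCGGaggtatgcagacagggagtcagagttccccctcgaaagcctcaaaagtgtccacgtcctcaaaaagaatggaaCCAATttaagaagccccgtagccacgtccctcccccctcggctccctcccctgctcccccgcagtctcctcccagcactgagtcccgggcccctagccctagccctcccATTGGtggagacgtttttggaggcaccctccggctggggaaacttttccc
Col3a1: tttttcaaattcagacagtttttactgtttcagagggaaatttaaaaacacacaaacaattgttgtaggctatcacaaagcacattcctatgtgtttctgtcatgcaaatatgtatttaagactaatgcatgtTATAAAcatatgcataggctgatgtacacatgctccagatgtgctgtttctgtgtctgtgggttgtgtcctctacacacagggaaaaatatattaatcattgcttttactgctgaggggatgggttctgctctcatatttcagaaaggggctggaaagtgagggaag

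The letters of these windows differed. Col1a2 held CCAAT 109 bases before the RefSeq start and again, on the other strand, at base 1, with GGGCGG at 205 and 188 bases before that start. The whole Col1a2 window lies before the start of this gene in the deposited tables (chr6:4505697), so these distances hold for the RefSeq start only. Col3a1 held none of these and a TATAAA 117 bases before its start. The share of G and C was 61% in Col1a2 and 37.7% in Col3a1, against a median of 52.7% over all RefSeq windows. Over all 32851 windows CCAAT was found in 37.4%, GGGCGG in 35.7% and TATAAA in 13.6%. Over the 39 windows of the genes described here the shares were 30.8%, 69.2% and 7.69%. By class, CCAAT was in 3 of 7 fibrillar windows and in 4 of 11 collagen IV and laminin windows. GGGCGG was in 6 and 7 of these, and TATAAA in 2 and 0. These counts are too small to set the classes apart. These are letter matches, not tested sites.

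**Figure D2:**
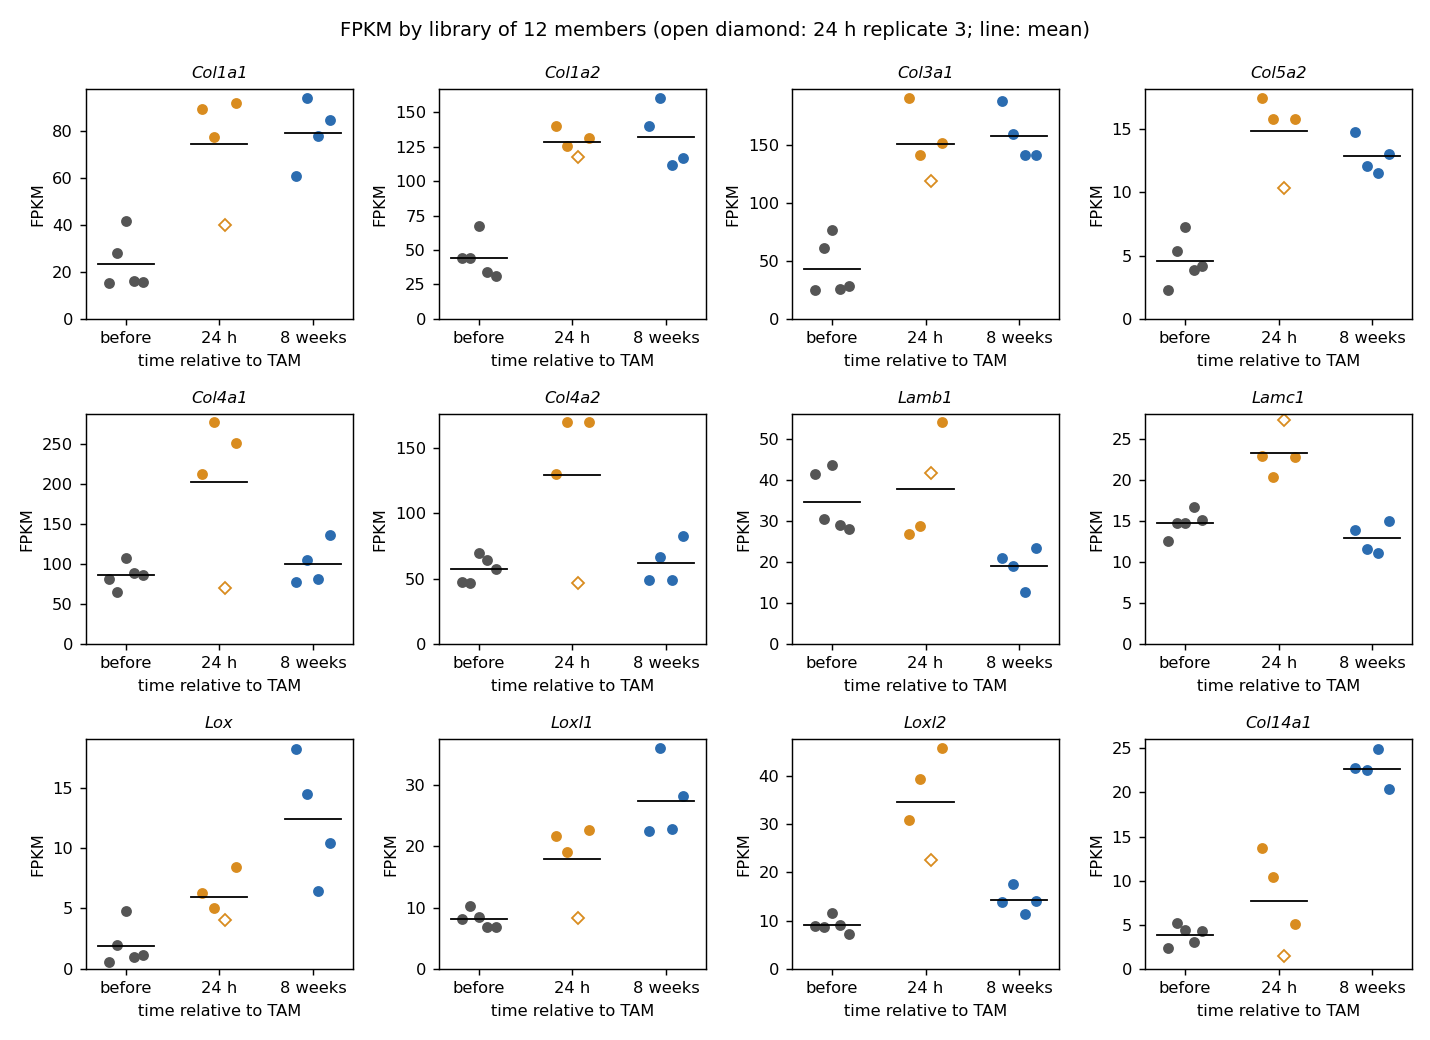
FPKM of 12 genes in every library before TAM (grey), at 24 h (orange) and at 8 weeks (blue), with the group mean as a line and 24 h replicate 3 as an open diamond. Col1a2, Col3a1 and Col5a2 lie above the earlier libraries at both later times, Col4a1 and Col4a2 at 24 h in 3 of 4 libraries, and Loxl2 peaks at 24 h.

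All 5 lysyl oxidase genes were listed, and 4 of them rose at 24 h and 4 at 8 weeks (edgeR, median log2 fold change 1.2 and 1.55). The share of all genes that rose was 12.6% at 24 h and 20.5% at 8 weeks. Lox encodes the founding enzyme of the family. It was at 0.601, 1.99, 4.82, 1.00 and 1.10 FPKM before TAM, at 6.29, 5.02, 4.02 and 8.40 FPKM at 24 h, and at 18.2, 14.5, 6.42 and 10.4 FPKM at 8 weeks. Its 8-week libraries lay above every library before TAM, whereas 24 h replicate 3 lay below before replicate 3. The log2 change was 2.78 ± 0.54 at 8 weeks (adjusted p = 0.0017) and 1.66 ± 0.53 at 24 h (adjusted p = 0.044). The 24 h call was lost in 10 of the 13 fits that left out 1 library (adjusted p 0.051 to 0.13).

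Loxl1, which is needed for elastic fibres as well, also rose at both times. It was at 8.08, 10.3, 8.45, 6.76 and 6.89 FPKM before TAM, at 21.7, 19.2, 8.37 and 22.7 FPKM at 24 h, and at 22.6, 36.1, 22.8 and 28.3 FPKM at 8 weeks. At 24 h replicate 3 stayed inside the earlier range. The log2 change was 1.20 ± 0.27 at 24 h (edgeR adjusted p = 0.0081) and 1.88 ± 0.27 at 8 weeks (adjusted p = 0.00022).

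Loxl2, whose product also acts on collagen IV, peaked at 24 h. It was at 8.85, 8.69, 11.5, 9.05 and 7.12 FPKM before TAM, at 30.9, 39.2, 22.5 and 45.7 FPKM at 24 h, and at 13.8, 17.6, 11.2 and 14.1 FPKM at 8 weeks. The 24 h libraries lay above all others. This was a log2 change of 1.98 ± 0.22 at 24 h (edgeR adjusted p = 0.00018) and 0.77 ± 0.22 at 8 weeks (adjusted p = 0.014, or 0.052 without before replicate 5). The fall from 24 h to 8 weeks was itself past the threshold (-1.20 ± 0.23, adjusted p = 0.0068).

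Loxl3 was low and rose at both times. Its level was 1.57 ± 0.469 FPKM (SD, n = 5) before TAM, 3.32 ± 0.272 FPKM (SD, n = 4) at 24 h and 3.20 ± 0.870 FPKM (SD, n = 4) at 8 weeks, with log2 changes of 1.11 ± 0.23 (edgeR adjusted p = 0.0058) and 1.16 ± 0.23 (adjusted p = 0.0021). Loxl4 stayed under 0.865 FPKM in all libraries and passed no test. One Loxl4 transcript was listed only before TAM and at 8 weeks and was left out of its sum.

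Collagen IV was higher at 24 h in 3 of 4 libraries through its abundant chains. Of the 6 genes 2 rose at 24 h and none fell (edgeR, median log2 fold change 0.56). At 8 weeks none rose and 2 fell (median -0.25), and between 24 h and 8 weeks 2 fell (median -0.96). Of all genes 36.9% were called at 8 weeks, 19.2% at 24 h and 20.8% between these times, so the 8-week count is near the background.

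Col4a1 and Col4a2 encode the chains of the collagen IV found in nearly all basement membranes. Col4a1 was at 81.3, 65.1, 107, 88.8 and 85.6 FPKM before TAM, at 212, 277, 69.9 and 251 FPKM at 24 h, and at 76.8, 104, 81.2 and 136 FPKM at 8 weeks. In 3 of the 4 libraries at 24 h it lay above all others, and in replicate 3 it lay inside the earlier range. The log2 change at 24 h was 1.29 ± 0.35 (edgeR adjusted p = 0.021), or 1.60 ± 0.21 without replicate 3 (adjusted p = 0.00025). The call was lost without before replicate 2 or 5 or 24 h replicate 2 or 4 (adjusted p 0.050 to 0.063), or with only the compared groups in the fit (adjusted p = 0.051). At 8 weeks the change was 0.34 ± 0.35 (adjusted p = 0.46).

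Col4a2 followed Col4a1. It was at 47.5, 46.5, 69.9, 64.5 and 57.4 FPKM before TAM, at 130.5, 170.1, 46.9 and 169.8 FPKM at 24 h, and at 48.5, 66.3, 49.2 and 82.6 FPKM at 8 weeks. The same 3 libraries at 24 h were high. Its log2 change against before TAM was 1.23 ± 0.33 at 24 h (edgeR adjusted p = 0.022), or 1.54 ± 0.21 without replicate 3 (adjusted p = 0.00028). The call was lost without before replicate 1, 2 or 5 or 24 h replicate 2 or 4 (adjusted p 0.050 to 0.073), or with only the compared groups (adjusted p = 0.055). The 8-week change was 0.23 ± 0.33 (adjusted p = 0.61).

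The lower level at 8 weeks than at 24 h passed the test for this pair only without 24 h replicate 3. The difference of Col4a1 was -0.95 ± 0.37 (edgeR adjusted p = 0.083), and -1.30 ± 0.23 without that library (adjusted p = 0.0022). That of Col4a2 was -1.0 ± 0.36 (adjusted p = 0.063), and -1.34 ± 0.22 without it (adjusted p = 0.0017). Summed endothelial markers were 328 to 368 FPKM before TAM, 486, 547, 159 and 703 FPKM in 24 h replicates 1 to 4, and 226 to 324 FPKM at 8 weeks, so the same 24 h library was low in both. Of 10 endothelial genes 2 rose at 24 h (Esam and Cdh5), where 12.6% of all genes rose. The part of the endothelial genes in the collagen IV result was not tested.

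Col4a1 and Col4a2 lie head to head on chromosome 8, and their windows are printed because their levels stayed in a narrow ratio. In the mm10 coordinates of the deposited tables Col4a1 spans chr8:11198423-11312826 on the minus strand and Col4a2 chr8:11312829-11449287 on the plus strand, with starts 3 bases apart. The RefSeq windows, Col4a1 at chr8:11312777-11313076 and Col4a2 at chr8:11312555-11312854, overlap by 78 bases, which are the last bases of both. The RefSeq start of Col4a2 lies before its start in the deposited tables and inside the Col4a1 span. Positions in the Col4a2 window count from the RefSeq start. Capitals mark the same letters as above.
Col4a1: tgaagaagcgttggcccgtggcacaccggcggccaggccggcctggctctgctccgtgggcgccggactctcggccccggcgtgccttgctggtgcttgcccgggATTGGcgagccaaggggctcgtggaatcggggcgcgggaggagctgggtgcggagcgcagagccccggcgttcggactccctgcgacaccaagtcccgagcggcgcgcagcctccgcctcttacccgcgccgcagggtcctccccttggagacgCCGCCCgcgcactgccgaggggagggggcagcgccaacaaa
Col4a2: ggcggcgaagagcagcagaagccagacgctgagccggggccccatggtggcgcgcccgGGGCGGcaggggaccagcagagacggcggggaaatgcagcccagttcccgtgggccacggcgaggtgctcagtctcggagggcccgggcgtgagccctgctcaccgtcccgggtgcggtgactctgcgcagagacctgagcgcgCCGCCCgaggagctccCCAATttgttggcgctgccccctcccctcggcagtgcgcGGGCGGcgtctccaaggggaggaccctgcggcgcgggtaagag

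Both windows are rich in G and C (74.0% for Col4a1 and 73.7% for Col4a2). Within the overlap lies 1 GGGCGG, which begins at base 8 of Col4a2 and appears as CCGCCC at base 10 of Col4a1. Col4a2 also held CCAAT 32 bases before its start, and Col4a1 held CCAAT on the other strand 145 bases before its start. Neither window held TATAAA.

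The Col4a1 level was 1.38 to 1.71 times the Col4a2 level in all 13 libraries, while Col4a1 itself ranged from 65.1 to 277 FPKM. The other head-to-head pairs of this family did not keep such a ratio. Col4a3 and Col4a4, with starts 72 bases apart on chromosome 1, had a ratio of 0.779 to 1.46 before TAM, 0.914 to 1.76 at 24 h and 1.53 to 3.19 at 8 weeks. The 3.19 was 8-week replicate 1, where Col4a4 had a count of 41, and the other 8-week ratios were 1.53 to 1.64. Col4a4 counts were 41 to 626, against 10598 to 46240 for Col4a1, so the ratios of the low pairs are less exact. Col4a5 and Col4a6, with starts 1343 bases apart on chromosome X, had a ratio of 2.56 to 11.1, where Col4a6 was under 1.85 FPKM outside 24 h replicate 3. The choice of these ratios followed a look at their values, and they carry no test.

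**Figure D3:**
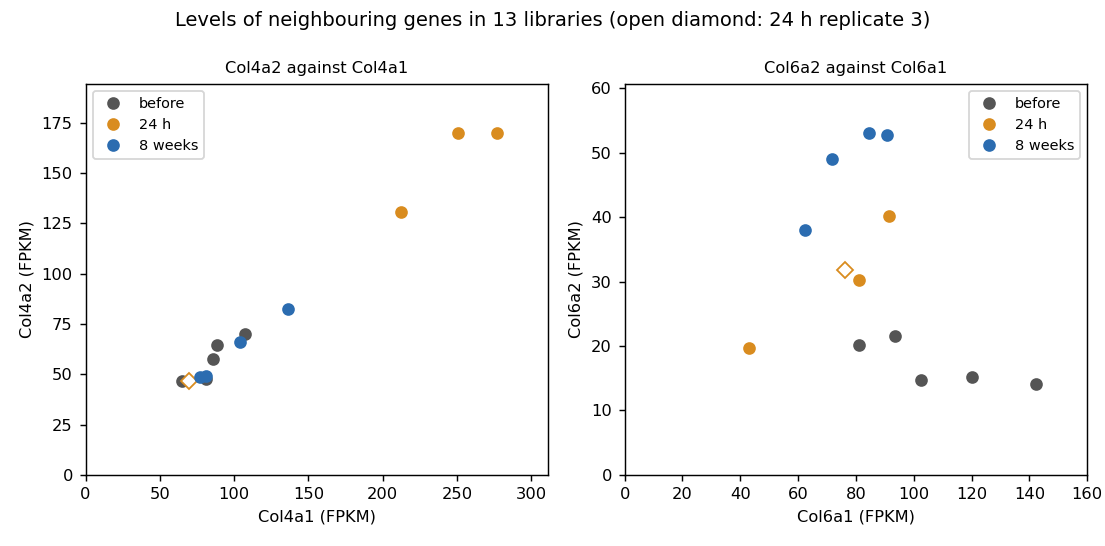
FPKM of Col4a2 against Col4a1 (left) and of Col6a2 against Col6a1 (right) in all 13 libraries, coloured by group, with 24 h replicate 3 as an open diamond. Col4a1 and Col4a2 keep a ratio of 1.38 to 1.71, while the ratio of Col6a1 to Col6a2 goes from 4.03 to 10.1 before TAM to 1.46 to 1.73 at 8 weeks.

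The minor collagen IV chains, which form the networks of specialised basement membranes such as those of the kidney, were low and did not follow Col4a1. Col4a5 was at 5.27, 5.94, 4.48, 8.16 and 6.14 FPKM before TAM, at 5.09, 3.65, 10.6 and 3.40 FPKM at 24 h, and at 2.91, 3.42, 2.54 and 2.79 FPKM at 8 weeks. All 8-week libraries lay below all those from before TAM, and the log2 change was -0.93 ± 0.27 (edgeR adjusted p = 0.018). These Col4a5 values are sums over 2 transcripts, which went opposite ways at 8 weeks against before by the authors' log2 ratios (-8.7 and 0.672). Neither transcript had an authors' q-value under 0.05. The fall of Col4a5 is thus that of the sum and was not shared by both transcripts. Col4a4 was at 2.08, 0.744, 0.820, 1.26 and 1.05 FPKM before TAM, at 1.22, 0.919, 2.56 and 1.04 FPKM at 24 h, and at 0.183, 0.539, 0.578 and 0.618 FPKM at 8 weeks. It fell by 1.17 ± 0.43 on the log2 scale at 8 weeks (adjusted p = 0.046), a call lost in 8 of the 13 fits that left out 1 library (adjusted p 0.050 to 0.12).

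Col4a3 was at 1.09 to 1.62 FPKM before TAM, 1.11 to 3.05 at 24 h and 0.584 to 1.01 at 8 weeks. Its change at 8 weeks was -0.45 ± 0.28 (edgeR adjusted p = 0.24), although the groups did not overlap in FPKM. Against 24 h it was lower at 8 weeks by -0.98 ± 0.30 (adjusted p = 0.036), a call lost without 24 h replicate 4 or any 8-week replicate (adjusted p 0.051 to 0.093). Col4a6 was at 4.12 FPKM in 24 h replicate 3, and its 24 h change was 0.59 ± 0.54 with that library and -0.49 ± 0.37 without it (adjusted p = 0.50 and 0.34).

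A laminin is a trimer of an alpha, a beta and a gamma chain, and the alpha chain carries the main cell-binding sites. Of 9 laminin genes tested 5 fell and none rose at 8 weeks (edgeR, median log2 fold change -0.74). At 24 h 1 rose and 2 fell (median 0.16), and between 24 h and 8 weeks 5 fell (median -0.75). The share of all genes that fell was 16.4% at 8 weeks, 6.63% at 24 h and 10.6% between these times. Without 24 h replicate 3, Lama1 and Lama4 were called lower at 24 h as well, and the falls at 24 h numbered 4 for laminins and collagen IV together.

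Among the alpha chains Lama3, a chain of epithelial laminins, fell at both times. It was at 2.36, 2.14, 1.42, 2.05 and 2.07 FPKM before TAM, at 0.884, 1.12, 0.533 and 0.612 FPKM at 24 h, and at 0.263, 0.515, 0.282 and 0.477 FPKM at 8 weeks, with no overlap between any of the groups in FPKM. With the scaling used in the test, the 24 h and 8-week groups overlapped. The log2 change was -1.32 ± 0.27 at 24 h (edgeR adjusted p = 0.0054) and -2.26 ± 0.29 at 8 weeks (adjusted p = 8.8e-05). The step from 24 h to 8 weeks was -0.95 ± 0.29 (adjusted p = 0.035), lost without 24 h replicate 1 or 2 or 8-week replicate 1 or 3 (adjusted p 0.060 to 0.094).

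Lama5, the broad alpha chain of adult epithelial and vascular basement membranes, was at 5.01, 6.87, 4.88, 5.49 and 6.02 FPKM before TAM, at 5.91, 7.96, 2.64 and 10.1 FPKM at 24 h, and at 1.54, 2.26, 2.37 and 3.51 FPKM at 8 weeks. The 8-week libraries lay below all those before TAM. The log2 change at 8 weeks was -1.09 ± 0.35 against before (edgeR adjusted p = 0.026) and -1.38 ± 0.36 against 24 h (adjusted p = 0.021). Both calls were lost without 8-week replicate 1 or 2 (adjusted p 0.068 to 0.078 and 0.055 to 0.058).

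Lama4, the alpha chain of vascular basement membranes, was at 11.5, 13.6, 8.77, 21.6 and 22.3 FPKM before TAM, at 10.3, 8.38, 16.1 and 5.44 FPKM at 24 h, and at 10.98, 7.56, 8.88 and 11.98 FPKM at 8 weeks. The groups overlapped, and neither change passed the test (-0.63 ± 0.31 at 24 h, edgeR adjusted p = 0.18, and -0.52 ± 0.31 at 8 weeks, adjusted p = 0.20). Without 24 h replicate 3 the 24 h change was -0.87 ± 0.30 and passed just under the threshold (adjusted p = 0.050). Lama2, the alpha chain of muscle and nerve, was at 4.88 to 13.2 FPKM throughout and passed no test.

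Lama1, an alpha chain best known from embryonic basement membranes, rested on a single library at 24 h. It was at 1.12 to 2.09 FPKM before TAM, at 0.976, 0.987, 14.7 and 0.475 FPKM at 24 h, and at 0.228 to 0.516 FPKM at 8 weeks. The 24 h change was 1.37 ± 0.76 with replicate 3 (edgeR adjusted p = 0.24) and -0.88 ± 0.29 without it (adjusted p = 0.042). At 8 weeks the groups did not overlap, and the change of -2.04 ± 0.82 missed the threshold (adjusted p = 0.066) unless 24 h replicate 3 or 4 was left out (adjusted p 0.00011 to 0.032). The difference of 8 weeks from 24 h was -3.42 ± 0.88 (adjusted p = 0.020), or -1.19 ± 0.30 without 24 h replicate 3 (adjusted p = 0.013), and was lost without 8-week replicate 1 (adjusted p = 0.056).

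Both beta chains tested fell at 8 weeks. Lamb1 was at 41.6, 30.6, 43.8, 29.1 and 28.1 FPKM before TAM, at 26.9, 28.9, 41.7 and 54.2 FPKM at 24 h, and at 21.0, 19.1, 12.7 and 23.5 FPKM at 8 weeks. All 8-week libraries lay below all others. The log2 change at 8 weeks was -0.74 ± 0.25 against before (edgeR adjusted p = 0.032) and -0.90 ± 0.26 against 24 h (adjusted p = 0.029). The first call was lost without before replicate 1 or 3 or 8-week replicate 1, 2 or 3 (adjusted p 0.054 to 0.091), and the second without 24 h replicate 4 or 8-week replicate 1, 2 or 3 (adjusted p 0.054 to 0.071).

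Lamb2, the beta chain of mature vessels and synapses, was at 21.4, 25.1, 23.3, 30.1 and 27.1 FPKM before TAM, at 19.7, 20.9, 23.2 and 21.9 FPKM at 24 h, and at 8.48, 14.8, 13.8 and 20.8 FPKM at 8 weeks. It fell by 0.68 ± 0.20 on the log2 scale at 8 weeks (edgeR adjusted p = 0.019). In FPKM every 8-week library lay below every library before TAM, but 8-week replicate 4 (20.8) was close to before replicate 1 (21.4). With the scaling used in the test these libraries changed order, so the groups then overlapped.

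Lamc1, the gamma chain of most laminins, rose at 24 h and was lower again at 8 weeks. It was at 12.5, 14.8, 14.8, 16.6 and 15.1 FPKM before TAM, at 22.9, 20.4, 27.3 and 22.8 FPKM at 24 h, and at 13.8, 11.5, 11.1 and 15.0 FPKM at 8 weeks. Every 24 h library, replicate 3 included, lay above all others. Its log2 changes were 0.68 ± 0.12 at 24 h (edgeR adjusted p = 0.0021), -0.07 ± 0.12 at 8 weeks (adjusted p = 0.69) and -0.75 ± 0.13 from 24 h to 8 weeks (adjusted p = 0.0043). Lamc3 fell from 6.85 ± 3.25 FPKM (SD, n = 5) to 3.02 ± 0.992 FPKM at 24 h (adjusted p = 0.032) and 3.25 ± 1.19 FPKM at 8 weeks (SD, n = 4, adjusted p = 0.048). The calls of Lamc3 were lost in 4 and 7 of the 13 fits that left out 1 library.

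Set side by side, the fibrillar genes called at 8 weeks rose, and the basement membrane genes called (collagen IV and laminins) fell. At that time 6 of 9 fibrillar genes rose and none fell, and 0 of 15 collagen IV and laminin genes rose and 7 fell (edgeR, medians 1.46 and -0.68), where 20.5% of all genes rose and 16.4% fell. The other 8 of the 15 were not called, among them the abundant Col4a1 and Col4a2 (log2 change 0.34 and 0.23). Col15a1, a vascular basement membrane gene described below and outside this class, rose by 1.26 ± 0.20 (edgeR adjusted p = 0.00048). At an unadjusted p under 0.05 the fibrillar genes still counted 0 lower and the basement membrane genes 0 higher and 8 lower, and DESeq2 gave 0, 0 and 7. At 24 h the counts were 4 higher and 0 lower among fibrillar genes, and 3 higher and 2 lower among basement membrane genes (medians 1.56 and 0.29). From 24 h to 8 weeks 2 fibrillar genes rose, and 7 basement membrane genes fell (medians 0.14 and -0.90). Without 24 h replicate 3 the counts at 24 h were 6 higher and 0 lower among fibrillar genes and 3 higher and 4 lower among basement membrane genes. From 24 h to 8 weeks 1 fibrillar gene was then higher (Col27a1) and 1 lower (Col5a1), and at 8 weeks 1 was lower against before (Col5a3). Without that library the 7 falls at 8 weeks became 8, and the 7 from 24 h became 8. Without 8-week replicate 1 or 2 the 7 falls against before became 3.

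Summed over each class, fibrillar collagens were at 139, 168, 301, 129.7 and 129 FPKM before TAM, at 499, 441, 312 and 428 FPKM at 24 h, and at 432, 464, 381 and 409 FPKM at 8 weeks. In FPKM every library after TAM was above every earlier one, with 24 h replicate 3 (312) nearest to before replicate 3 (301). The scaling factors of these libraries in the test were 1.134 and 0.989, and with them that order is not kept. Collagen IV summed to 120.3 to 184 FPKM before TAM, 351, 453, 137 and 427 FPKM at 24 h, and 129.8 to 224 FPKM at 8 weeks. Laminins summed to 107 to 119 FPKM before TAM, 97.2 to 143 FPKM at 24 h and 58.1 to 87.8 FPKM at 8 weeks.

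The fibrillar sum was 0.459 to 1.03 times the sum of collagen IV and laminins before TAM, 0.777 to 1.11 times at 24 h and 1.31 to 2.23 times at 8 weeks. The 8-week libraries stood above all 9 earlier ones, and this holds with or without 24 h replicate 3, whose ratio was 1.11. The ratio is a description with no test, and since it is taken within a library it does not depend on the scaling between libraries.

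**Figure D4:**
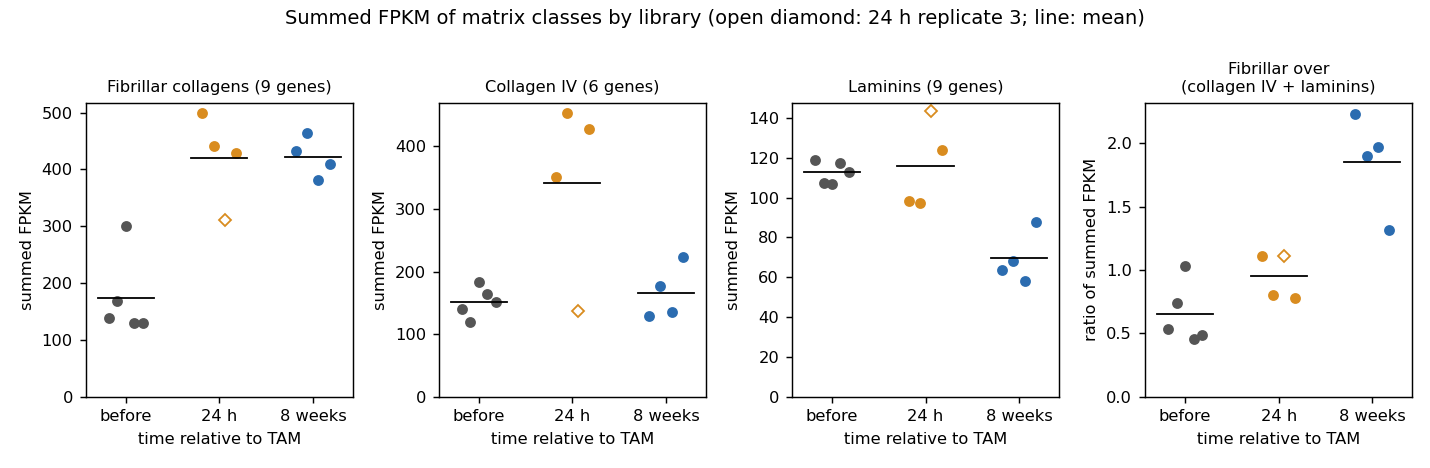
Summed FPKM of the 9 fibrillar collagens, the 6 collagen IV genes and the 9 laminins, and the ratio of the first to the other classes, in every library by time, with group means as lines and 24 h replicate 3 as an open diamond. Fibrillar sums are high at both later times, collagen IV peaks at 24 h in 3 libraries, laminins are lowest at 8 weeks, and the ratio at 8 weeks is 1.31 to 2.23.

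Type VI collagen forms beaded microfilaments at the border of basement membrane and interstitial matrix. Of its 5 tested genes 3 rose at 8 weeks and 2 at 24 h, and none fell (edgeR, medians 1.49 and 0.69). Of all genes 20.5% and 12.6% rose at these times. Col6a2 was at 14.6, 20.1, 21.6, 14.1 and 15.2 FPKM before TAM, at 40.1, 30.2, 31.8 and 19.7 FPKM at 24 h, and at 37.9, 52.7, 49.0 and 53.1 FPKM at 8 weeks. Its log2 change was 0.84 ± 0.20 at 24 h (adjusted p = 0.010) and 1.62 ± 0.20 at 8 weeks (adjusted p = 7e-05).

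Col6a3 was at 6.00, 6.18, 5.33, 6.88 and 6.39 FPKM before TAM, at 19.8, 13.7, 9.90 and 6.92 FPKM at 24 h, and at 12.6, 17.8, 12.8 and 17.5 FPKM at 8 weeks. Its log2 change against before TAM was 1.05 ± 0.23 at 24 h (edgeR adjusted p = 0.0075) and 1.43 ± 0.23 at 8 weeks (adjusted p = 0.00052). Col6a1 encodes the third chain of the classical trimer. It was at 81.2 to 142 FPKM before TAM, 42.9 to 91.3 FPKM at 24 h and 62.3 to 90.9 FPKM at 8 weeks, and its changes of -0.55 ± 0.22 and -0.35 ± 0.21 did not pass the test (adjusted p = 0.093 and 0.22).

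The ratio of the type VI chains was lower after TAM. The Col6a1 level was 4.03 to 10.1 times that of Col6a2 before TAM, 2.18 to 2.69 times at 24 h and 1.46 to 1.73 times at 8 weeks, and no group overlapped another. It too was picked once its values were known, and carries no test. The genes lie on the same strand of chromosome 10, with 85387 bases between them.

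Col6a5, a rarer alpha chain of type VI, was at 0.477, 2.91, 1.94, 0.155 and 0.229 FPKM before TAM, at 2.29, 1.43, 1.69 and 0.311 FPKM at 24 h, and at 6.22, 10.8, 10.2 and 5.12 FPKM at 8 weeks. The 8-week libraries lay above all others. The log2 change was 2.96 ± 0.78 against before (edgeR adjusted p = 0.010) and 2.64 ± 0.84 against 24 h (adjusted p = 0.042), the second lost in 7 of the 13 fits that left out 1 library (adjusted p 0.055 to 0.086). Its chromosome 9 neighbour Col6a6 was under 1.19 FPKM in every library and passed no test, and Col6a4, not listed at 24 h, was at most 0.816 FPKM.

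The FACIT collagens, which sit on the surface of fibrils and link them to other matrix, were called at 8 weeks and not at 24 h. Of 7 genes 4 rose and 1 fell at 8 weeks (edgeR, median log2 fold change 1.29), and 0 were called at 24 h (median 0.90, with 12.6% and 6.63% of all genes called). At an unadjusted p under 0.05 there were 4 at 24 h (Col9a3, Col12a1, Col14a1 and Col16a1), each higher, and DESeq2 called 1, Col12a1.

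Col14a1, which binds fibrils of type I collagen, was at 2.39, 5.18, 4.45, 3.08 and 4.23 FPKM before TAM, at 13.7, 10.4, 1.40 and 5.08 FPKM at 24 h, and at 22.7, 22.5, 24.9 and 20.4 FPKM at 8 weeks. The 8-week libraries were close to each other and above all others. It changed by 2.69 ± 0.48 on the log2 scale at 8 weeks (edgeR adjusted p = 0.0010) and 1.02 ± 0.47 at 24 h (adjusted p = 0.15), or 1.39 ± 0.29 at 24 h without replicate 3 (adjusted p = 0.0037). Against 24 h the 8-week level was higher by 1.67 ± 0.51 (adjusted p = 0.036), a call lost in 8 of the 13 fits that left out 1 library (adjusted p 0.051 to 0.089).

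Col20a1 was at 1.88, 1.35, 0.827, 1.62 and 1.60 FPKM before TAM, at 1.28, 1.15, 1.17 and 0.626 FPKM at 24 h, and at 1.93, 3.62, 3.36 and 4.03 FPKM at 8 weeks. It rose at 8 weeks by 1.29 ± 0.29 on the log2 scale (edgeR adjusted p = 0.0038) and by 1.73 ± 0.31 against 24 h (adjusted p = 0.0048). Col22a1 was the one FACIT gene that fell. It was at 3.63, 1.85, 0.834, 0.926 and 1.60 FPKM before TAM, at 1.05, 1.23, 0.708 and 0.531 FPKM at 24 h, and at 0.0969, 0.360, 0.216 and 0.440 FPKM at 8 weeks, a change of -2.55 ± 0.53 (adjusted p = 0.0025).

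Col16a1 rose from 5.50 ± 0.863 FPKM (SD, n = 5) to 8.25 ± 2.37 FPKM (SD, n = 4) at 8 weeks (edgeR adjusted p = 0.014). Col9a3 rose from 0.159 ± 0.0564 to 0.408 ± 0.178 FPKM (adjusted p = 0.021), a call lost without 8-week replicate 2 or 4 (adjusted p 0.060 to 0.062). Col12a1, a tension-bearing fibril partner, was at 2.91, 1.67, 1.11, 1.29 and 1.58 FPKM before TAM, 2.60, 2.03, 5.46 and 2.64 FPKM at 24 h, and 1.53, 2.05, 1.07 and 2.16 FPKM at 8 weeks, with a change of 0.90 ± 0.31 at 24 h (adjusted p = 0.060). Col9a2 was at 7.04 FPKM in 24 h replicate 3 and at 0.148 to 2.175 FPKM in all other libraries, and its 24 h change was 1.5 ± 0.80 with that library and -0.45 ± 0.54 without it (adjusted p = 0.22 and 0.57). At 8 weeks its change of 1.34 ± 0.80 (adjusted p = 0.21) passed without that library (1.30 ± 0.48, adjusted p = 0.040), and the difference of 8 weeks from 24 h went from -0.16 ± 0.84 (adjusted p = 0.91) to 1.75 ± 0.57 (adjusted p = 0.038).

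The multiplexins Col15a1 and Col18a1 belong to vascular basement membranes, and the end of the Col18a1 product is the fragment endostatin. Neither was called lower after TAM. Col15a1 was at 14.8, 14.4, 17, 16.3 and 17.6 FPKM before TAM, at 41.5, 34.6, 18.4 and 24.1 FPKM at 24 h, and at 34.5, 36.2, 30.9 and 38.7 FPKM at 8 weeks. In FPKM all later libraries lay above all earlier ones. With the scaling used in the test, 24 h replicate 3 lay inside the earlier range. The log2 change was 0.92 ± 0.20 at 24 h (edgeR adjusted p = 0.0074) and 1.26 ± 0.20 at 8 weeks (adjusted p = 0.00048).

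Col18a1 was at 16.0, 24.9, 28.3, 20.3 and 22.6 FPKM before TAM, at 71.1, 142, 15.2 and 91.7 FPKM at 24 h, and at 17.3, 36.6, 92.2 and 32.6 FPKM at 8 weeks. As with Col4a1, 3 of the 4 libraries at 24 h were high and replicate 3 was not. The 24 h rise was 1.87 ± 0.58 on the log2 scale (edgeR adjusted p = 0.038), or 2.24 ± 0.47 without replicate 3 (adjusted p = 0.0042), and it was lost without any 1 of the other 8 libraries compared (adjusted p 0.055 to 0.11). At 8 weeks the change of 1.23 ± 0.57 did not pass the test (adjusted p = 0.11), though it did without 24 h replicate 3 (adjusted p = 0.041).

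Of the short-chain network collagens, Col8a1, made in remodelling vessel walls, rose at both times. It was at 0.773, 1.15, 1.12, 0.975 and 0.824 FPKM before TAM, at 2.72, 4.00, 1.04 and 4.79 FPKM at 24 h, and at 5.04, 3.99, 2.08 and 3.33 FPKM at 8 weeks. This was a log2 change of 1.75 ± 0.38 at 24 h (edgeR adjusted p = 0.0073) and 2.02 ± 0.39 at 8 weeks (adjusted p = 0.0015). Col8a2 was at 1.01 to 2.89 FPKM throughout, with changes of 0.21 ± 0.28 and 0.61 ± 0.28 (adjusted p = 0.65 and 0.10).

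Among the transmembrane collagens Col23a1 fell. It was at 4.38, 3.51, 4.83, 2.04 and 2.96 FPKM before TAM, at 1.33, 1.89, 1.91 and 0.686 FPKM at 24 h, and at 0.419, 0.926, 0.644 and 1.15 FPKM at 8 weeks, so no later library reached an earlier one. Its log2 change against before TAM was -1.28 ± 0.36 at 24 h (edgeR adjusted p = 0.025), lost without before replicate 1 or 3 or 24 h replicate 1 or 4 (adjusted p 0.052 to 0.058), and -2.06 ± 0.37 at 8 weeks (adjusted p = 0.0010). Col13a1, found at cell adhesions, was at 1.16 to 6.86 FPKM and Col25a1, a neuronal collagen, at 0.134 to 1.47 FPKM, and neither passed a test. Nor did Col7a1, the anchoring fibril chain, at 0.184 to 2.29 FPKM, or Col28a1, at 0.136 to 2.77 FPKM, although the 8-week change of Col28a1 (1.47 ± 0.60, adjusted p = 0.071) passed without 24 h replicate 1 or 3 (adjusted p 0.016 to 0.028).

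Of the genes listed for some groups only, Col26a1 was at 0.473, 0.396, 6.10 and 0.434 FPKM at 24 h. Lamb3 was at 0.000 to 0.375 FPKM before TAM and at 0.295 to 0.391 FPKM at 8 weeks. No fold change is given for these genes.

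Of 24 tested enzymes and chaperones that make and process collagen chains 3 rose and 5 fell at 8 weeks, 5 rose and 2 fell at 24 h, and 5 fell from 24 h to 8 weeks (edgeR, medians 0.06, 0.34 and -0.23). Over all genes 36.9% were called at 8 weeks, 19.2% at 24 h and 20.8% between these times, and the calls in this list are near those shares or, at 24 h, above. Pcolce, which enhances removal of the C-terminal propeptide of fibrillar procollagens, fell from 514 ± 82.8 FPKM (SD, n = 5) to 135 ± 12.7 at 24 h and 98.4 ± 33.6 FPKM at 8 weeks (SD, n = 4, adjusted p = 0.00019 and 1.6e-05). Adamts2, which removes the N-terminal propeptide, rose from 2.66 ± 0.904 to 13.6 ± 5.53 and 14.5 ± 4.30 FPKM (adjusted p = 0.00032 and 4.9e-05). From 24 h to 8 weeks P3h1, Fkbp10 and Plod2, which hydroxylate or fold the chains, fell by 1.23, 1.15 and 0.84 on the log2 scale (adjusted p = 0.0033, 0.019 and 0.024).

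Most genes of interstitial proteins that bind or accompany collagen fibrils rose at 8 weeks. Of these 20 interstitial matrix partners 15 rose and 1 fell at 8 weeks and 9 rose at 24 h (edgeR, medians 1.56 and 0.83), where 20.5% and 12.6% of all genes rose. Lum, a proteoglycan of collagen fibrils, rose from 24.5 ± 13.5 FPKM (SD, n = 5) to 107 ± 42.1 and 197 ± 79.3 FPKM (SD, n = 4, adjusted p = 0.0037 and 0.00015). Fbn1, the main microfibril protein, rose by 2.19 ± 0.24 at 24 h and 1.53 ± 0.24 at 8 weeks on the log2 scale (adjusted p = 0.00018 and 0.0004).

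Of 16 basement membrane partners 2 rose and 3 fell at 8 weeks, 5 rose at 24 h, and 1 rose and 6 fell between these times (edgeR, medians -0.30, 0.84 and -0.95). The 8-week count is near the 36.9% of all genes called then, while 12.6% of all genes rose at 24 h and 10.6% fell between the later times. Nid2, which bridges laminin and collagen IV, rose by 1.05 ± 0.13 at 24 h (adjusted p = 0.00023) and fell by 1.14 ± 0.14 from 24 h to 8 weeks (adjusted p = 0.00088). Its paralog Nid1 was at 23.8 ± 1.86 FPKM before TAM (SD, n = 5) and rose to 50 ± 5.69 at 24 h and 37.4 ± 7.77 FPKM at 8 weeks (SD, n = 4, adjusted p = 0.0003 and 0.00085). Fbln1 had the lowest p of this list at 8 weeks and rose by 2.95 ± 0.42 on the log2 scale (adjusted p = 0.00021). From 24 h to 8 weeks it rose by 1.87 ± 0.44 (adjusted p = 0.014). Smoc1 fell at 8 weeks by 0.98 ± 0.20 (adjusted p = 0.0019).

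Of 14 receptors for collagen and laminin 5 rose and 2 fell at 8 weeks and 3 rose at 24 h (edgeR, medians -0.04 and 0.31), where 36.9% and 19.2% of all genes were called, so the 24 h count is near the background. The collagen receptors Mrc2 and Ddr2 rose at 8 weeks by 1.22 ± 0.20 and 1.57 ± 0.31 on the log2 scale (adjusted p = 0.00062 and 0.0018). Itga6, the alpha subunit of laminin-binding integrins, fell at 8 weeks by 1.08 ± 0.19 (adjusted p = 0.00085). Of 19 genes of the TGF-beta pathway, a main inducer of fibrillar collagen genes, 9 rose and 3 fell at 8 weeks and 8 rose and 2 fell at 24 h (medians 0.52 and 0.63), where 20.5% of all genes rose and 16.4% fell at 8 weeks and 12.6% rose and 6.63% fell at 24 h. Ltbp1, which holds latent TGF-beta in the matrix, rose by 1.31 ± 0.16 at 24 h and 1.34 ± 0.16 at 8 weeks (adjusted p = 0.00027 and 6e-05), and the co-receptor Tgfbr3 fell by 1.27 ± 0.17 at 8 weeks (adjusted p = 0.00013). The Ltbp1 paralog Ltbp3 was more abundant and fell at 8 weeks by 1.06 ± 0.15 (adjusted p = 0.00016), from a mean of 57.6 to 25.2 FPKM.

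Markers of several cell types were higher at the same times as the fibrillar genes. Capsule and fibroblast markers summed to 143 to 234 FPKM before TAM, 273 to 379 FPKM at 24 h and 268 to 499 FPKM at 8 weeks, with 3 of 10 higher at 24 h and 5 of 10 at 8 weeks (edgeR). Smooth muscle and pericyte markers summed to 61.1 to 92.9, 126 to 232 and 106 to 226 FPKM, with 5 of 8 and 6 of 8 higher. Macrophage markers summed to 320 to 1009, 2411 to 3808 and 5617 to 10860 FPKM, with 9 of 9 higher at both times. Among all genes 12.6% were higher at 24 h and 20.5% at 8 weeks. The part of these cell types in the fibrillar result was not tested.

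Fat cell, glial and cortex markers changed at 8 weeks. Fat cell markers summed to 181 to 1221 FPKM before TAM, 62.4 to 2550 FPKM at 24 h and 4326 to 10640 FPKM at 8 weeks, with 4 of 8 higher at 8 weeks and Lep at 0 in at least 1 library. Schwann cell and glial markers summed to 4.23 to 13.4, 3.29 to 11.6 and 18.4 to 32.5 FPKM, with 3 of 5 higher at 8 weeks. Steroid-making cortex markers summed to 18180 to 23870, 4212 to 18360 and 1476 to 3577 FPKM, with 2 of 8 lower at 24 h and 5 of 8 at 8 weeks, beside the fall of the laminins. Among all genes 20.5% were higher and 16.4% lower at 8 weeks, and 6.63% were lower at 24 h. Endothelial markers showed 1 gene higher (Vwf) and 1 lower (Flt1) of 10 at 8 weeks, below the 36.9% of all genes called then. Medulla markers summed to 1427 to 6124 FPKM before TAM, 76.9 to 4959 FPKM at 24 h and 6490 to 9228 FPKM at 8 weeks, so every 8-week library lay above every earlier one, with a median log2 fold change of 1.41 at 8 weeks. Mesothelial markers summed to 1.32 to 17.6, 2.59 to 90.2 and 10.5 to 30.1 FPKM. No gene of either list (0 of 10 and 0 of 5) passed the test against before (edgeR). At an unadjusted p under 0.05, 1 medulla gene was higher at 8 weeks, also by DESeq2, and 1 mesothelial gene at 24 h, not by DESeq2. No gene of a skeletal muscle list was listed. The part of these cell types in the collagen and laminin results was not tested.

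**Figure D5:**
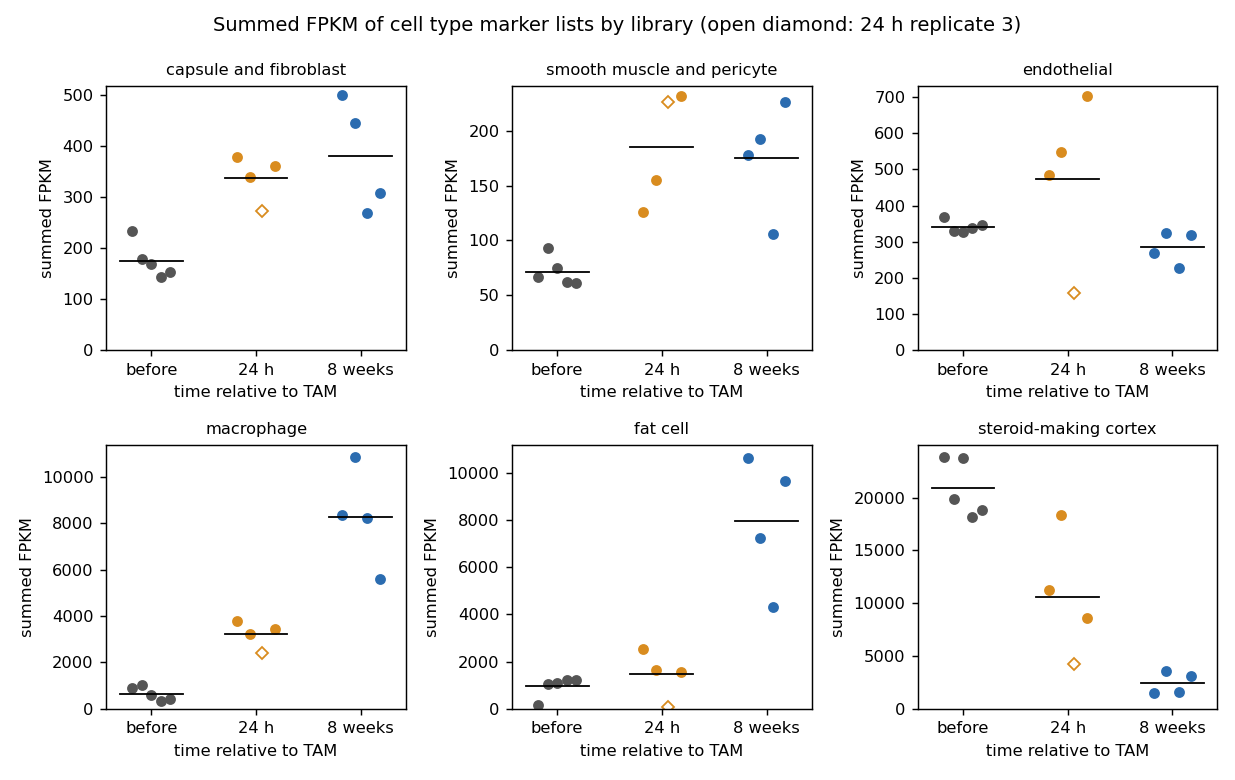
Summed FPKM of 6 cell type marker lists in every library by time, with group means as lines and 24 h replicate 3 as an open diamond. Fibroblast, smooth muscle and macrophage sums are above the earlier range at both later times, the endothelial sum is 159 in 24 h replicate 3 against 486 to 703 in its group, and fat cell sums reach 4326 to 10640 at 8 weeks.

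In the authors' deposited table for 8 weeks against before, the 58 listed transcripts of these genes included 19 with a q-value under 0.05 and a higher level at 8 weeks and 8 with a lower one. The libraries are the same, and the genes passing differ in part from those of the edgeR fit. Lama1, Col28a1, Col6a6 and Col4a3 passed there only, and Col16a1, Col9a3, Col4a4, Col4a5 and Lamc3 in the edgeR fit only.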

How the data were processed

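Per the labels' protocols, library preparation used a stranded kit for mRNA. The submitters' processing notes name TopHat2 2.0.14, bcl2fastq 2.17 and the build mm10 (GRCm38). The authors deposited tables by RefSeq transcript with, per the file headers, expected counts (read numbers estimated per transcript, mostly not whole) and FPKM for every library. For 8 weeks against before they also deposited log2 values, a p-value and a q-value. FPKM values were not scaled between libraries, so statements that groups did not overlap refer to FPKM without the scaling of the test. The TMM scaling factors of the fit were 0.989 to 1.061 before TAM, 0.934 to 1.134 at 24 h and 0.9 to 0.978 at 8 weeks. Their use would raise 8-week values against those before TAM.

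Expected counts were summed per gene over the 18738 transcripts listed for all groups, rounded, and tested in 1 fit of 13 libraries with edgeR 4.0.16 in R 4.3.3 (quasi-likelihood test, TMM scaling, filterByExpr, which removed no listed gene), Benjamini-Hochberg adjusted over 14078 genes at 0.05. Summed FPKM uses the same transcripts. Errors on log2 fold changes are standard errors. DESeq2 1.42.0 and limma 3.58.1 were alternatives. The test was also run on simulated data. The settings and result of that run are not given here, so no conclusion about the comparisons above is drawn from it.

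The gene rule, classes, lists and markers were chosen with earlier results of these data known. The rule for named genes took 35 genes, those of a fixed core (Col1a1, Col1a2, Col3a1, Col4a1, Col4a2, Lama4, Lamb1, Lamc1 and Lox) and, per class, the 3 with the lowest p at 8 weeks and the 1 with the lowest at 24 h. Of each pathway list, up to 3 called genes with the lowest p could be named. Genes singled out for 1 library (Lama1, Col11a1, Col9a2, Col5a3, Col26a1) were chosen after their values were seen. Same-numbered libraries did not deviate together (correlations -0.13 to 0.28), so the main fit has no block. Promoter windows are from RefSeq, and protein sequences were not used here. Motifs were searched on both strands. Position values in the deposited tables were read as 1-based, since 38 of 54 genes then share a boundary with the RefSeq gene, against 4 if read as 0-based. Values of 1 gene found by the rule are not reported here.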

Additional observations from a re-analysis of the deposited data

Results flagged for a closer look

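In 117 groups of 4 or 5 libraries checked for a single far value, 4 were found, while chance gives about 1 in 20 groups. The check covered only the 35 genes named by the rule and 4 class sums. It left out Lama1, Col4a6, Col11a1 and Col9a2, which were at 14.7, 4.12, 10.7 and 7.04 FPKM in 24 h replicate 3. The highest of the other 24 h libraries was at 0.987, 0.775, 1.01 and 0.808 FPKM. The 4 far values found are therefore not a count for all genes described here. Col7a1 was at 0.184 FPKM in 24 h replicate 3, where the next library had 1.63 FPKM. Col25a1 was at 0.465 FPKM in before replicate 2 (next 0.774) and at 0.310 FPKM in 8-week replicate 1 (next 1.31). The fibrillar sum was 301 FPKM in before replicate 3 (next 168).

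For 11 of the genes named by the rule, the changes at 24 h and at 8 weeks differed from each other by a direct test of 8 weeks against 24 h (edgeR). Lower at 8 weeks than at 24 h were Lamb1 (-0.90 on the log2 scale), Lamc1 (-0.75), Lama3 (-0.95), Lama5 (-1.38), Col4a3 (-0.98), Col4a4 (-1.43) and Loxl2 (-1.20). Higher at 8 weeks were Col14a1 (1.67), Col20a1 (1.73), Col6a2 (0.78) and Col6a5 (2.64). Of all 14 genes called in this comparison, 3 kept their call in every fit that left out 1 library.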

How the results depend on the processing

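Groups of 4 or 5 libraries, a 24 h library that stands apart and bulk tissue limit these results. With only the compared groups in the fit, 1 fibrillar gene, Col5a3, was called lower at 8 weeks (0 in the main result), also when all transcripts listed for both groups were summed (1), and from 24 h to 8 weeks 2 genes were higher and 2 lower (6 and 8). With multiplexins added to the basement membrane class, 1 was higher at 8 weeks (0). With voom quality weights (lowest for 24 h replicate 3, at 0.0958, and 24 h replicate 4, at 0.236) 5 genes were lower at 24 h (3). Without 24 h replicates 3 and 4 together 1 gene was lower. With the replicate block, 5 genes were lower at 8 weeks (9) and 3 of the basement membrane class (7), 6 were higher and 1 lower at 24 h (16 and 3), and 3 were higher and 3 lower from 24 h to 8 weeks (6 and 8). The same numbers do not pair the libraries by the labels, and in 2 of 12 pairings the library correlated best with its own number.

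Leaving out 1 library at a time, the genes lower at 8 weeks numbered 5 to 11, those of the basement membrane class 3 to 8 and fibrillar genes 0 to 1. At 24 h 1 to 5 were lower, and from 24 h to 8 weeks 1 to 7 were higher and 2 to 11 lower. In these fits 21 of 28 calls at 8 weeks, 13 of 19 at 24 h and 3 of 14 between the later groups were kept throughout. Without a scaling factor the median over all genes moved by -0.128 at 8 weeks, and the split of all genes became 2424 higher and 3054 lower (2882 and 2311), and 1181 and 2093 from 24 h to 8 weeks (1428 and 1495). Of the 35 genes named by the rule, none changed direction under an alternative while called. The cause of these shifts was not tested.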
